A study of Mus musculus with 6 samples.

Results

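The genes described here encode the presynaptic vesicle release machinery, the proteins that hold synaptic vesicles at a nerve terminal, fuse them with the membrane when calcium enters, and recover the membrane afterwards. They were 38 named genes, and all 38 had a probe set with exactly 1 gene symbol in the array's annotation, out of 18193 genes so named. They were chosen by function, and where a gene had several probe sets the one with the highest mean log2 intensity over all 6 arrays stood for it. Of the 38, 36 passed the filter on dim probe sets and were tested among 14678 genes, a probe set without a symbol counting as 1 gene, while Sv2c and Rab3b did not pass.

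The arrays compare control mice with transgenic mice that the series title calls HuD overexpressors. HuD binds and stabilises messenger RNAs of neurons, and its gene is Elavl4. The RNA came from hippocampal cells that the labels call isolated DGCs, taken here as granule cells of the dentate gyrus. There were 3 control and 3 transgenic arrays. Mouse 1 of each group gave 1 array and mouse 2 gave 2 arrays, so that 2 mice stood in each group. The p-values of the group comparison rest on the spread between these mouse values, which also holds spread between arrays. The test, limma, draws in addition on the spread of all tested genes. The titles number the arrays of control mouse 2 as 2 controls, and the array numbers used for a mouse are names without an order. The same array number in both groups thus does not pair those arrays. A tag, re-LCM, stands in the titles of 3 arrays: those of mouse 1 in both groups and array 1 of transgenic mouse 2. The labels do not explain it. They give no strain, age, sex or promoter of the transgene, and list preservation as the treatment of every sample.

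Vesicles are docked and primed at the active zone by large scaffold proteins, and fusion follows when a vesicle SNARE zips together with the SNAREs of the plasma membrane. Complexins clamp and then assist that step, synaptotagmins sense calcium, and Nsf with its SNAP adaptors takes spent SNARE complexes apart. Granule cells release glutamate from the large mossy fibre terminals, which are known for a low initial release probability and strong facilitation.

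Granule cell markers were well above the floor on all arrays. The summed intensity of Prox1, Dsp, Tdo2, C1ql2, Calb1 and Npnt ran from 16462 to 19255 on control arrays and from 16487 to 17396 on transgenic arrays. The targeted gene, Elavl4, read 122, 92.8 and 63.7 in control against 79.4, 93.3 and 60.1 in transgenic mice at its brightest probe set. The ranges overlapped, the difference was -0.33 on the log2 scale (SE 0.27), and whether that probe set detects the transgene was not tested. An excess of Elavl4 was thus not detected, and mice are called transgenic by their labels alone. Markers of other cells were present in both groups, with summed intensities of 4631 to 11386 in control and 5320 to 7898 in transgenic arrays for the 7 of 8 oligodendrocyte genes with a probe set. The 6 astrocyte genes summed to 2535 to 3987 and 2058 to 2945, the 9 interneuron genes to 2975 to 3622 and 3425 to 3771, and the 6 pyramidal cell genes to 503 to 633 and 443 to 542. The 7 microglia genes summed to 2857 to 4012 and 2719 to 3368, and the 4 vascular genes to 124 to 198 and 98.5 to 111, with the endothelial gene Pecam1 at the floor on all arrays. The tested genes of each list were lower in transgenic mice for 6 of 6 oligodendrocyte genes (median -0.73), 5 of 5 astrocyte genes (-0.39), 5 of 5 microglia genes (-0.28), 4 of 5 pyramidal cell genes (-0.25) 7 of 9 interneuron genes (-0.38, although their summed range was not lower) and the 1 tested vascular gene. None passed with limma after adjustment. An unadjusted p under 0.05 was found for 3 of the marker genes: Sst, the interneuron peptide somatostatin, at -1.47 (SE 0.26), the oligodendrocyte factor Sox10 at -1.19 (SE 0.40) and the endothelial junction gene Cldn5 at -1.15 (SE 0.34). Arrays did not overlap for these 3 genes, nor for 1 other interneuron gene, which was higher in transgenic arrays. Over all tested genes, 4.31% had an unadjusted limma p under 0.05. Without overlap, 3.86% of all tested genes were higher and 4.22% lower. The part of these other cell types in the values below was not tested. Among the 6 arrays, that of control mouse 1 had the highest oligodendrocyte, astrocyte, pyramidal cell and vascular sums. In such bulk RNA, fewer cells of a type and less RNA per cell cannot be told apart.

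Promoter sequence was available for 30 of the 38 genes, as RefSeq windows of 300 bases on GRCm38.p6 that run from 250 bases before a transcript start to 50 after it. Syn3, Snap25, Vamp2, Syt4, Syt5, Syt7, Doc2b and Rims2 were not matched to one. Each motif was searched on both strands. The RE1 element, through which the repressor REST silences neuronal genes outside the nervous system, was spelled as TCAGNACC, 2 bases of any kind and GGNCAG. It occurred in 17 of 27025 genes with a window (0.0629%), and 2 of these were Syn1 and Rph3a. The cyclic AMP response element TGACGTCA, a palindrome, occurred in 549 of the genes (2.03%), among them Syn1 and Napa. The GC box GGGCGG was in the windows of 24 of the 30 genes (80.0%) against 38.2% of all genes, and TATAAA in 2 of the 30 (6.67%), Sv2b and Rab3b, against 15.7%. A response element match that ran past the transcript start, that of Napa, was named only. The stretches shown hold the remaining matches to the response element and to RE1, the rarest of the 4 motifs over all windows. The first lies on the minus strand of chromosome X, GRCm38.p6 chrX:20921050-20921168, from 250 to 132 bases before the start of Syn1. Its capitals mark the RE1 match, 231 to 216 bases before the start, and then the response element, 159 to 152 bases before it. The second lies on the minus strand of chromosome 5, chr5:121009595-121009650, from 112 to 57 bases before a start of Rph3a, and its capitals mark an RE1 match on the opposite strand.
Syn1: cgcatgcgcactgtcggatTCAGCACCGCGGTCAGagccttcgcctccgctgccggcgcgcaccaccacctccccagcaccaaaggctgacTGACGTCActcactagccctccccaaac
Rph3a: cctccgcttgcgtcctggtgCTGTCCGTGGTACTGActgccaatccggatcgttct
These matches describe letters in a window and not binding, and the arrays hold no measure of it. The expression values of Syn1 and Rph3a are given with their groups.

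The main question was whether the release genes differed between transgenic and control mice, and no difference was detected. With limma, 0 of the 36 passed the threshold over all tested genes (adjusted p = 0.999 for each), as did 0% of the 14678. None of the 36 had an unadjusted p under 0.05, a rule that 4.31% of all tested genes met. In none did the 3 transgenic arrays all lie above the 3 control arrays, as they did for 3.86% of all tested genes, and in none did they all lie below, as for 4.22%. The genes split evenly, with 19 higher and 17 lower in the transgenic mice (52.8% higher, against 50.5% of all tested genes). Their median difference was 0.01 on the log2 scale (transgenic minus control), beside 0.0026 for all tested genes. Their median absolute difference was 0.10, beside 0.15 for all tested genes. They were also brighter than most genes on the array, with a median mean log2 intensity of 9.92 against 7.22, and their median SE was 0.18 against 0.20.

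The intervals show what size of difference these 2 against 2 mice leave possible. These intervals use a spread estimated from few mice, and a p that misses the threshold does not show equality. The 95% interval lay within a 2-fold change in either direction for 33 of the 36 genes (91.7%, against 77% of all tested genes). It lay within a 1.5-fold change for 17 (47.2%, against 32%). The 3 genes whose interval reached past 2-fold were Syngr1, Sv2b and Unc13a.

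**Figure D1:**
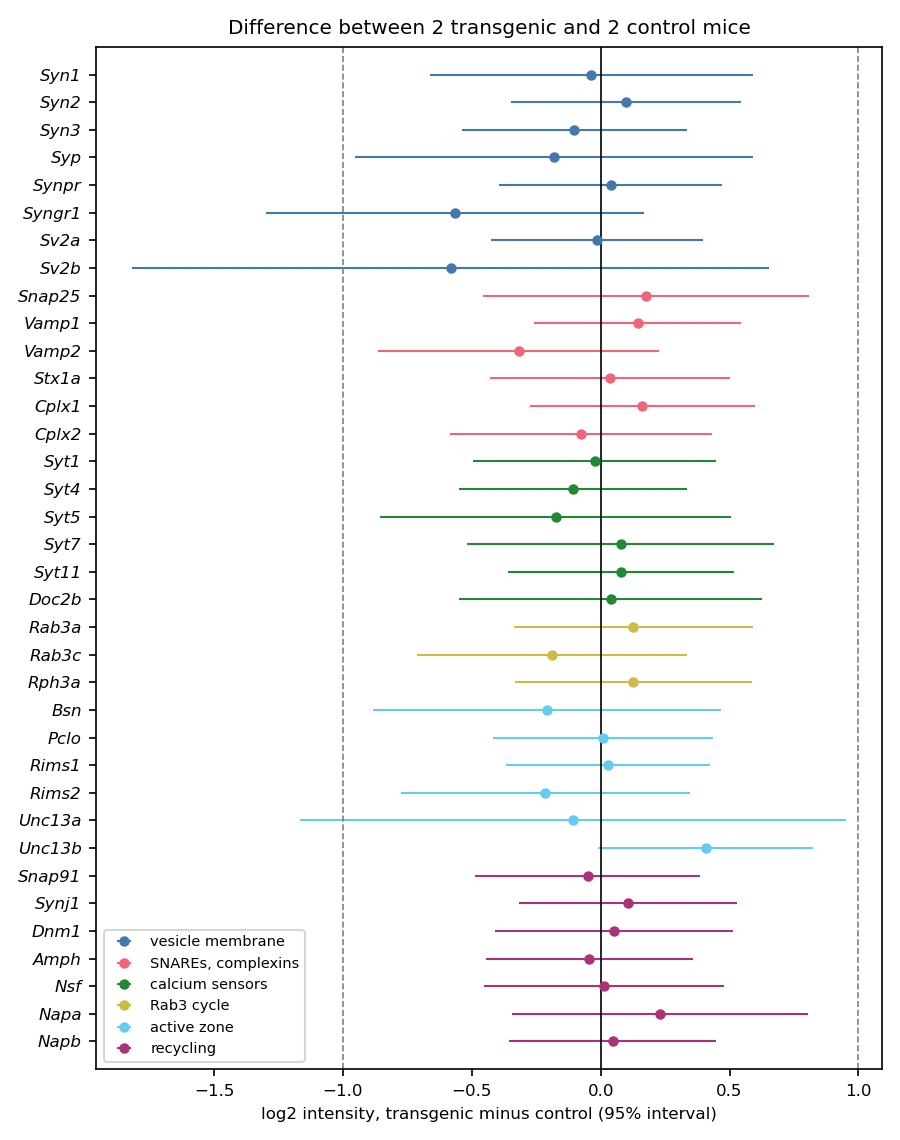
Log2 intensity of transgenic minus control mice (horizontal axis, log2 units) for the 36 tested genes, coloured by role. Points are the limma estimates over 2 mice per group, bars the 95% intervals, and dashed lines a 2-fold change. Every interval crosses 0, and those of Syngr1, Sv2b and Unc13a reach past -1.

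Proteins of the vesicle membrane and its tethers to actin came first. The synapsins coat vesicles and hold them in the reserve pool. Syn1 read 374, 268 and 258 on control arrays and 334, 311 and 252 on transgenic ones. Here and throughout, the first value is that of mouse 1, and the next are array 1 and array 2 of mouse 2. Both groups were highest on the array of mouse 1 and lowest on array 2 of mouse 2, and the difference was -0.04 (SE 0.24). Syn2 read 2109, 1641 and 1924 in control and 2075, 2160 and 1982 in transgenic mice, with a difference of 0.10 (SE 0.17). Syn3 read 778, 805 and 861 against 802, 707 and 694, with a difference of -0.10 (SE 0.17). Arrays overlapped for each synapsin at these probe sets. Further Syn2 probe sets above the filter gave -0.08, 0.06 and -0.02, and that of Syn3 gave -0.14.

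Synaptophysin and its relatives are abundant membrane-spanning proteins of the vesicle. Syp read 878, 802 and 462 in control and 786, 722 and 387 in transgenic mice. The low value of each group was on array 2 of mouse 2, with 2.27-fold between the highest and the lowest of the 6 arrays. The group difference was -0.18 (SE 0.29, 95% interval -0.95 to 0.59), smaller than the gap between the 2 arrays of a mouse, which was 0.80 in control and 0.90 in transgenic mouse 2. Without transgenic mouse 1 it was -0.47 and without transgenic mouse 2 it was 0.11. Synpr, which marks mossy fibre terminals, was steadier, at 1853, 1718 and 1993 against 2047, 1963 and 1593 (0.04, SE 0.17).

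Syngr1, a synaptogyrin of the same fold, had one of the larger differences among these genes. Its array values were 530, 275 and 375 in control and 277, 297 and 265 in transgenic mice. The array of control mouse 1 stood above the rest, and control mouse 2 array 1 fell inside the transgenic range. On the log2 scale the control mice averaged 8.69 ± 0.51 and the transgenic mice 8.12 ± 0.01 (SD, n = 2), a ratio of 0.676 (log2 -0.56, SE 0.28, 95% interval -1.30 to 0.17, limma adjusted p = 0.999). Without control mouse 1 the difference was -0.20, and without control mouse 2 it was -0.93. The array of control mouse 1 also had the highest summed oligodendrocyte markers, 11386 against 4631 to 7898 on the others, and their part in the Syngr1 value was not tested. A second, dimmer Syngr1 probe set gave 40.8, 37.6 and 5.20 in control and 43.0, 43.2 and 43.7 in transgenic mice. The arrays did not overlap there, and the difference of 0.62 had the opposite sign, with 1 control array under the floor intensity of 10.1. The mean of both probe sets differed by 0.03.

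The Sv2 proteins are transporter-like glycoproteins of the vesicle that modulate its readiness to fuse. Sv2a gave one of the narrowest sets of values, 807, 891 and 885 against 840, 826 and 847 (-0.01, SE 0.16), with 1.10-fold between the highest and the lowest array. Sv2b read 90.8, 63.8 and 46.4 in control and 31.5, 93.9 and 52.2 in transgenic mice. Its lowest and highest values were both transgenic. The difference was -0.58 (SE 0.47, 95% interval -1.82 to 0.65), and it was -0.01 without transgenic mouse 1, -0.21 without control mouse 1, -0.95 without control mouse 2 and -1.16 without transgenic mouse 2. With the mouse as a random block it was 0.0082, in a fit whose correlation between arrays of a mouse was negative (-0.54). A second Sv2b probe set differed by -0.03, and the mean of both by -0.30. Sv2c, which did not pass the filter, read 13.0, 5.04 and 20.6 in control and 19.4, 4.81 and 6.41 in transgenic mice, at or under the floor on 3 of 6 arrays. No comparison of levels was drawn for it.

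**Figure D2:**
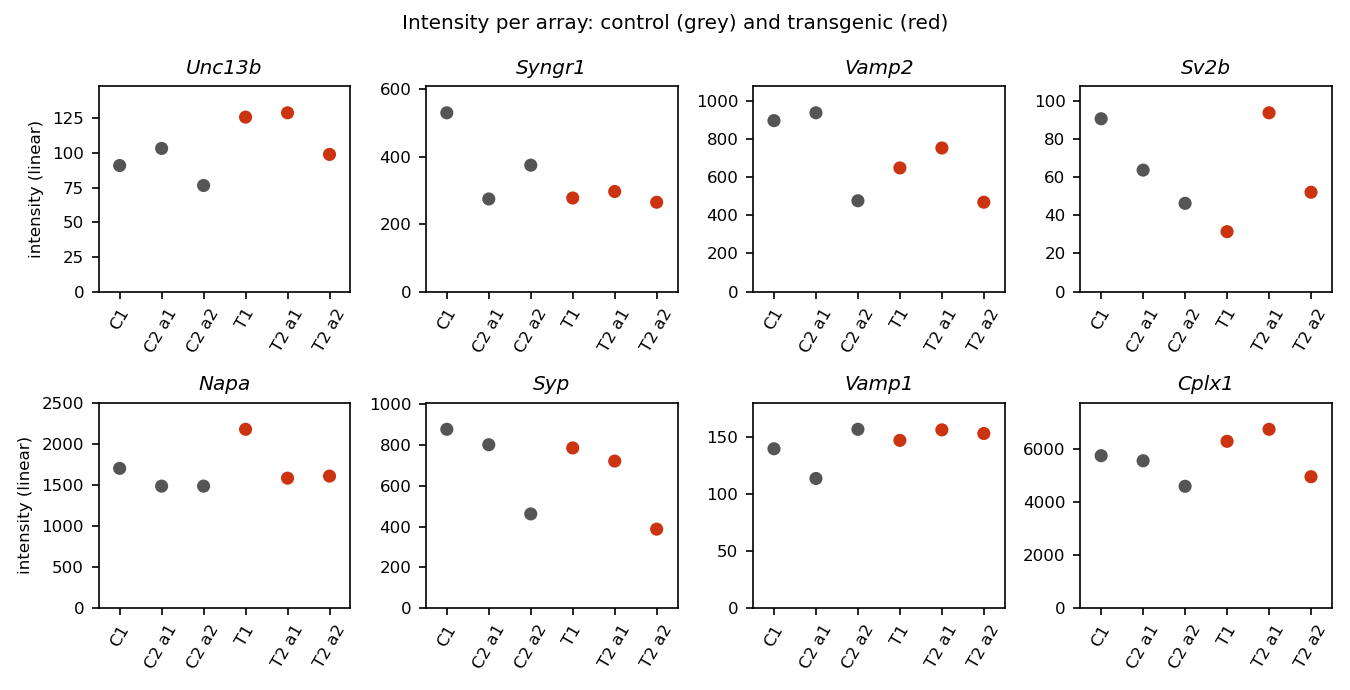
Linear intensity (vertical axis, starting at 0) on each array for 8 of the genes, with control arrays in grey and transgenic arrays in red. C1 and T1 are mouse 1, and C2 and T2 the 2 arrays (a1, a2) of mouse 2. Syp and Vamp2 are lowest on array 2 of mouse 2 in both groups, and Syngr1 is highest on control mouse 1, at 530. Array numbers are names and do not pair arrays between the groups.

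The SNARE proteins drive fusion. Snap25 and Stx1a sit on the plasma membrane, and Vamp1 and Vamp2 sit on the vesicle. Snap25 read 5983, 3790 and 4892 in control and 6427, 4903 and 5344 in transgenic mice at its brighter probe set (0.18, SE 0.24). The second Snap25 probe set, also far above the floor, read 3322, 3236 and 3941 against 2256, 3391 and 2578, a difference of -0.42. The probe sets thus pointed in opposite directions, and their mean differed by -0.12. On the array of transgenic mouse 1 they diverged most: it gave the highest value of the first and the lowest of the second. Without control mouse 1 the first differed by 0.41, and without control mouse 2 by -0.06. Stx1a read 1757, 2015 and 1614 against 1653, 2282 and 1780 (0.04, SE 0.18). Its second probe set was far dimmer, at 48.3, 59.7 and 49.3 against 50.0, 58.1 and 55.9, and differed by 0.06.

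Vamp2, the principal vesicle SNARE of forebrain synapses, read 896, 937 and 476 in control and 648, 753 and 468 in transgenic mice. Array 2 of mouse 2 was the lowest of each group, and the 2 arrays of control mouse 2 lay 0.98 log2 units apart, the widest such gap among the 36 genes. The control mice averaged 9.60 ± 0.30 and the transgenic mice 9.28 ± 0.09 on the log2 scale (SD, n = 2). The difference of -0.32 (SE 0.21, 95% interval -0.86 to 0.23) kept its sign under every alternative run, but ran from -0.56 without control mouse 2 array 2 to -0.07 without control mouse 2 array 1, and was -0.11 without control mouse 1. Vamp1 read 140, 114 and 157 against 147, 156 and 153 (0.14, SE 0.15). Its mice differed by little within each group, with log2 means of 7.09 ± 0.05 for control and 7.24 ± 0.05 for transgenic mice (SD, n = 2). The 2 arrays of control mouse 2 nevertheless lay 0.46 log2 units apart for Vamp1. Without control mouse 2 array 1, its lowest array, the difference was 0.03, and without control mouse 2 array 2 it was 0.26.

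Complexins bind the assembled SNARE bundle. Cplx1 read 5733, 5542 and 4581 in control and 6274, 6725 and 4942 in transgenic mice. Its transgenic mean was 1.12-fold that of control (0.16, SE 0.17, 95% interval -0.28 to 0.60), and array 2 of mouse 2 was again the lowest of each group. Its other probe sets above the filter gave 0.18 and, at the dimmest, -0.15, and the mean of all 3 differed by 0.07. Over leave-outs it ran from 0.05 without transgenic mouse 2 array 1 to 0.27 without transgenic mouse 2 array 2. Cplx2 read 2155, 2383 and 2130 against 1837, 3229 and 1747 (-0.08, SE 0.19), with the 2 arrays of transgenic mouse 2 at the extremes of all 6. Further Cplx2 probe sets gave 0.06 and -0.07.

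Among calcium sensors, Syt1 is the fast trigger of synchronous release. It read 3699, 3261 and 2934 in control and 3518, 3506 and 2832 in transgenic mice (-0.02, SE 0.18), the same order of arrays in both groups as for Syp. Its other 3 probe sets gave -0.18, -0.11 and 0.33. The last came from the dimmest of them, with 70.4, 85.5 and 63.2 against 105, 66.4 and 91.3. Syt7, a slow, high-affinity sensor tied to facilitation and asynchronous release, read 4089, 5903 and 5804 against 5282, 5240 and 4860 (0.08, SE 0.23). The array of control mouse 1 was its lowest, and its other probe sets above the filter gave 0.0070 and 0.05.

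Syt4 and Syt11, which bind calcium poorly, and Syt5 completed the synaptotagmins. Syt4 read 384, 326 and 326 against 329, 353 and 306 (-0.11, SE 0.17). Syt5 read 156, 121 and 116 against 144, 85.4 and 118 (-0.18, SE 0.26). Syt11 read 2178, 1834 and 1890 against 2125, 2076 and 2181 (0.08, SE 0.17), and its 5 probe sets above the filter lay between -0.04 and 0.08. Doc2b, a sensor of spontaneous release, read 926, 781 and 1004 against 781, 1011 and 1215 (0.04, SE 0.22). Calcium sensors thus stood 3 higher and 3 lower, each within 0.18 of 0 at the probe set chosen.

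Rab3 proteins are small GTPases that ride on vesicles and bind the active zone. Rab3a read 9097, 12603 and 9506 in control and 11298, 11943 and 9227 in transgenic mice (0.13, SE 0.18). A second Rab3a probe set was far dimmer, at 561, 465 and 357 against 523, 630 and 368, and gave 0.07. Rab3c read 210, 169 and 159 against 153, 188 and 160 (-0.19, SE 0.20). Its 2 dimmer probe sets above the filter gave -1.06 and -0.69, and the mean of the 3 differed by -0.64. The probe set at -1.06 read 68.2, 55.6 and 37.4 in control and 22.2, 36.7 and 28.4 in transgenic mice, without overlap. The Rab3c value at its brightest probe set was -0.01 without control mouse 1 and -0.37 without control mouse 2.

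Rab3b did not pass the filter. Its probe set read 80.2, 55.5 and 12.2 in control and 11.9, 40.1 and 21.7 in transgenic mice, a 6.72-fold span from the lowest to the highest array. In the fit without a filter its difference was -1.29 (SE 0.89, 95% interval -4.27 to 1.70, limma adjusted p = 0.884), and the 2 arrays of control mouse 2 alone lay 2.18 log2 units apart. Rph3a, the Rab3 effector rabphilin and the second gene with an RE1 match above, read 421, 423 and 439 against 511, 378 and 473 (0.13, SE 0.18). A second Rph3a probe set gave -0.33.

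Scaffolds and priming factors of the active zone followed. Bassoon and piccolo are giant scaffold proteins. Bsn read 213, 280 and 394 in control and 230, 207 and 257 in transgenic mice (-0.21, SE 0.26), with the array 2 of control mouse 2 above the rest. Without control mouse 1 the Bsn difference was -0.53, and without control mouse 2 it was 0.11. Pclo read 1064, 798 and 1219 against 1089, 836 and 1138 (0.0088, SE 0.16). Within each mouse 2 its array 2 was the brighter, the reverse of Syp and Vamp2. Further Pclo probe sets gave 0.20 and -0.29.

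Rims1 and Rims2 encode RIM proteins, which gather calcium channels and Rab3 at the release site. Rims1 read 629, 561 and 688 in control and 651, 547 and 712 in transgenic mice (0.03, SE 0.15). Rims2 read 472, 475 and 573 against 367, 497 and 502 (-0.21, SE 0.21). Transgenic mouse 1 held the lowest Rims2 value, and the difference was 0.0074 without that mouse and -0.44 without transgenic mouse 2. A dimmer Rims2 probe set gave -0.56 and another -0.03.

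The Unc13 genes encode Munc13 proteins, which open syntaxin and prime vesicles. Unc13b, the Munc13-2 gene, had the smallest p of the 36. It read 90.9, 103 and 76.5 in control and 126, 129 and 98.9 in transgenic mice. Within each group array 2 of mouse 2 was the lowest, and the 3 control arrays overlapped the transgenic ones at 1 value only, that of control mouse 2 array 1. The 2 arrays of mouse 2 lay 0.43 log2 units apart in control and 0.38 in transgenic mice, close to the size of the group difference. The log2 means were 6.49 ± 0.02 for control and 6.90 ± 0.11 for transgenic mice (SD, n = 2), a ratio of 1.33 (log2 0.41, SE 0.16, 95% interval -0.01 to 0.82, limma adjusted p = 0.999). The sign held under every alternative run, with values from 0.30 without control mouse 2 array 2 to 0.52 without control mouse 2 array 1. Unc13a, the Munc13-1 gene, read 29.7, 35.96 and 56.4 against 24.2, 46.2 and 49.3 (-0.11, SE 0.40). It was at -0.60 without transgenic mouse 2, at 0.38 without transgenic mouse 1, and at 0.04 with the floor at the median intensity.

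The last group takes SNARE complexes apart and retrieves vesicle membrane. Nsf, the ATPase that unwinds SNARE complexes, read 6106, 6208 and 5183 in control and 6514, 5743 and 5090 in transgenic mice (0.01, SE 0.18). Its adaptors are alpha-SNAP and beta-SNAP. Napa (alpha-SNAP) read 1704, 1487 and 1487 against 2180, 1584 and 1609 (0.23, SE 0.22), with transgenic mouse 1 above the other arrays. Without transgenic mouse 1 the Napa difference was 0.0047, and without transgenic mouse 2 it was 0.45. Napb (beta-SNAP) read 1583, 1553 and 1720 against 1616, 1682 and 1739 (0.05, SE 0.15). Another Napb probe set read 1011, 957 and 890 against 1160, 1111 and 1109, all transgenic arrays above all control arrays, with a difference of 0.23. Further ones gave -0.04 and 0.15.

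Dnm1, the neuronal dynamin that severs vesicle necks, read 1895, 1755 and 1700 in control and 2045, 1725 and 1720 in transgenic mice (0.05, SE 0.18). Snap91, which encodes the clathrin adaptor AP180, read 2010, 1768 and 1699 against 1835, 1833 and 1712 (-0.05, SE 0.17). Amph, encoding amphiphysin, read 1731, 1712 and 1660 against 1707, 1375 and 1882 (-0.04, SE 0.15). Synj1, encoding the phosphatase synaptojanin that helps uncoat vesicles, read 3044, 3032 and 3111 against 3499, 2909 and 3277 (0.10, SE 0.16), and its 3 probe sets above the filter gave 0.10, 0.15 and 0.22. The 7 genes of disassembly and recovery had a median absolute difference of 0.05, beside 0.15 for all tested genes.

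Several probe sets of a gene gave a check within the array. The 38 genes had 99 probe sets, of which 78 passed the filter. Of the 25 genes with more than 1 passing probe set, 11 had differences of both signs. Probe sets not given above stood at -0.36 for Bsn, 0.25 for Dnm1, -0.04 for Doc2b, 0.18 for Napa, 0.02 for Rims1 and -0.04 for Syt4, and at 0.10 and 0.15 for Nsf. Arrays did not overlap for 4 of the 78 probe sets. Higher in transgenic arrays were 3, of Syngr1, Napb and Syt11 (3.85%, against 3.83% of all passing probe sets). Lower was 1, of Rab3c (1.28%, against 4.32%). These shares are close to or under those of the whole array.

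Spread between arrays and between mice was set beside the group difference. The median absolute difference over the 36 genes was 0.22 between the 2 arrays of control mouse 2 and 0.25 between those of transgenic mouse 2. It was 0.19 between the 2 control mice, 0.17 between the 2 transgenic mice and 0.10 between the groups. A group value averages 3 arrays and a single array none, so these medians are not on equal terms. For all tested genes the same medians were 0.28, 0.30, 0.21, 0.22 and 0.15. The group difference was larger than the difference between mice in both groups for 2 of the 36, Unc13b and Vamp1 (5.56%, against 19.8% of all tested genes).

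**Figure D3:**
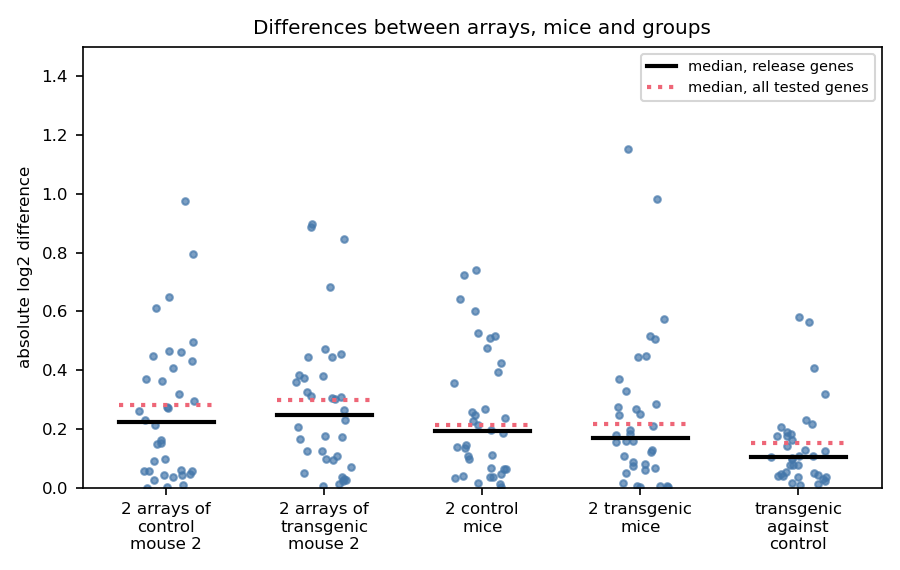
Absolute log2 difference (vertical axis) of the 36 tested genes between arrays of a mouse, between mice of a group and between groups, 1 point per gene. Black lines are medians of the 36 genes and dotted red lines medians of all tested genes. The median is 0.22 and 0.25 between arrays and 0.10 between groups.

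The second comparison was of arrays with and without the re-LCM tag. This fit took the 6 arrays as separate samples, so that the 2 arrays of a mouse count as independent and its p-values mix spread within and between mice. With the group as a term, limma passed 0 of the 36 genes and 0% of all tested genes, with a smallest adjusted p of 0.937. An unadjusted p under 0.05 was found for 2 of the 36 genes (5.56%), against 5.14% of all tested genes. These were Syp at 0.74 (SE 0.27) and Syn1 at 0.43 (SE 0.16), as tagged minus untagged. Both were higher with the tag in each group, Syp by 0.53 within control and 0.96 within transgenic arrays, and Syn1 by 0.51 and 0.35. Such values within a group rest on 1 tagged control array and on 1 untagged transgenic array. For Syp, untagged array 1 of control mouse 2 read 802, beside 878 on the tagged control array, and array 2 read 462. Vamp2 stood at 0.50 (0.42 within control, 0.58 within transgenic), Syt1 at 0.28 (0.26 and 0.31) and Cplx1 at 0.29 (0.19 and 0.39). In control, untagged array 1 of mouse 2 read 937 for Vamp2, above 896 on the tagged array, and untagged array 2 read 476.

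In the active zone group, 5 of 6 genes were lower with the tag in the fit, all but Unc13b at 0.20, and 3 were lower in both groups. Bsn stood at -0.44 (-0.64 within control, -0.24 within transgenic), Unc13a at -0.58 (-0.60 and -0.56) and Rims2 at -0.19 (-0.14 and -0.23). Pclo (0.11 within control, -0.25 within transgenic) and Rims1 (0.02 and -0.26) differed in sign between the groups. None of these passed the test. Over the 36 genes, 24 were higher with the tag (66.7%, against 49.2% of all tested genes), with a median of 0.14 beside -0.0044 for all tested genes. Within the groups, 17 genes were higher with the tag in both and 7 were lower in both. In the control group the tagged array is also that of the other mouse, so tag and mouse cannot be told apart there. The ratio of 3' to 5' probe sets of Actb, a sign of RNA length, moved with the tag, at 17.4, 14.8 and 19.4 on tagged arrays and 22.7, 24.2 and 27.8 on untagged ones. For Gapdh it was 6.92, 7.06 and 6.46 against 8.40, 7.87 and 8.63. Its part in the values of Syp, Syn1 and the others was not tested. With the tag as a term, the transgenic difference of Syp was -0.44 in place of -0.18, that of Napa 0.12 and that of Cplx1 0.08.

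**Figure D4:**
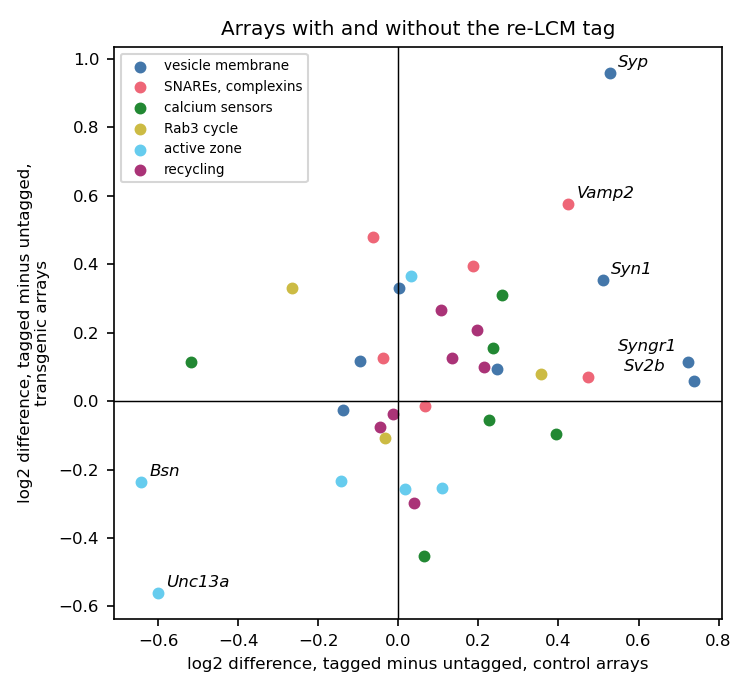
Log2 difference of tagged minus untagged arrays within the control group (horizontal axis) and within the transgenic group (vertical axis), 1 point per gene, coloured by role. Syp, Vamp2 and Syn1 lie at the upper right, and Bsn and Unc13a at the lower left.

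Single arrays differed in how often they held a gene's extreme value. Of the 36 genes, 10 had their lowest value on transgenic mouse 2 array 2 (27.8%, against 15.9% of all tested genes), and 3 on control mouse 1 (8.33%, against 15.7%). The highest value lay on control mouse 1 for 8 (22.2%, against 14.0%). The median deviation of the 36 genes from their means over 6 arrays ran from -0.05 on array 2 of both mouse 2 animals to 0.05 on the array of transgenic mouse 1.

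**Figure D5:**
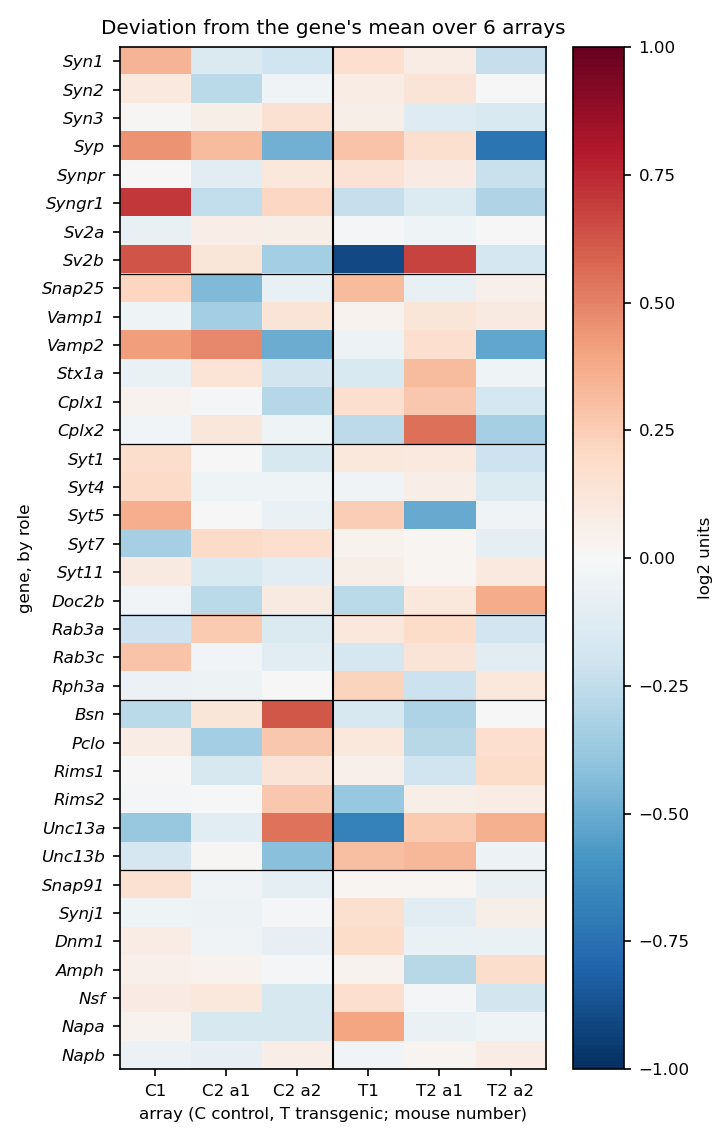
Log2 deviation of each array (columns) from the gene's mean over the 6 arrays for the 36 tested genes (rows, grouped by role), with red above and blue below the mean. No row separates the 3 control columns from the 3 transgenic ones, and Syp and Vamp2 are blue on array 2 of mouse 2 in both groups. Array numbers are names and do not pair arrays between the groups.

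Other genes of the release pathway, from 6 lists by function, were read the same way. Of 136 genes listed, 115 were tested, 72 higher and 43 lower in the transgenic mice (median 0.04). Over all tested genes 50.5% were higher, with a median of 0.0026. None of the 115 had an adjusted p under 0.05 with limma or an unadjusted p under 0.05. Arrays did not overlap for 4 higher genes (Stxbp5, Scamp5, Rab3gap2 and Atp6v0d1) and 3 lower genes (Lin7c, Dnm2 and Mycbp2), of which Stxbp5, Scamp5, Rab3gap2 and Mycbp2 were named for that after their values were seen. The shares of all tested genes were 3.86% higher and 4.22% lower, and the counts among these 115 genes lie under both. Further SNAREs and their regulators were 13 higher and 7 lower (20 of 25 tested), with the SNAREs Stx16 at 0.28 and Stx12 at -0.20 and the syntaxin-binding Txlna at 0.33. Vesicle proteins and chaperones were 10 higher and 9 lower (19 of 24 tested), with Sncb, or beta-synuclein, at -0.30 Syngr3, a relative of Syngr1, at 0.26 and the vesicle GTPase Rab27a at 0.33. Calcium sensors and priming factors were 10 higher and 3 lower (13 of 21 tested, median 0.18), with Syt17 at 0.41 and Unc13d at 0.26 and Unc13c, another Munc13 gene, at -0.62 (SE 0.43).

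Active zone scaffolds were 12 higher and 7 lower (19 of 20 tested). Lin7c, an adaptor of the Cask complex, read 1177, 1066 and 1107 in control and 936, 651 and 870 in transgenic mice, without overlap. Its difference was -0.43 (SE 0.19, limma adjusted p = 0.999). Lin7a stood at -0.39 (SE 0.24), with overlap, and Apba1, or Mint1, of the same complex at 0.42 (SE 0.26). Endocytic genes were 15 higher and 14 lower (29 of 30 tested), with the dynamin Dnm2 at -0.24, the clathrin adaptor subunit Ap2s1 at 0.29 and Eps15 at -0.28. Subunits of the proton pump that fills vesicles were 12 higher and 3 lower (15 of 16 tested, median 0.08). Atp6v0d1 read 1200, 1185 and 1232 against 1389, 1356 and 1427, without overlap and with a difference of 0.21 (SE 0.15), while Atp6v0a1 stood at -0.39 (SE 0.39) and Atp6v0b at 0.16.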

How the data were processed

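The authors deposited linear probe set intensities of single-colour arrays, which the files show scaled to a 2% trimmed mean of 150.001 on each array. How probes were combined and background subtracted is not given in the sources used here. From these, 64 control probe sets were left out and 45037 kept, with 1 symbol for 34945. The platform annotation named the genes. Intensities under 10.1, the pooled 25th percentile, were raised to it before log2. Probe sets above the median of mean log2 values were kept, 1 per gene, which gave 14678 tested genes, of which 11138 were named. Arrays of a mouse were averaged, except in the fit of the re-LCM tag, which took 6 arrays as separate samples. Groups were compared in R 4.3.3 by limma 3.58.1, through lmFit and eBayes (2 residual and 2.70 prior degrees of freedom), with Benjamini-Hochberg adjustment over all tested genes at 0.05. The fit was tested on simulated data with changes larger than any difference of the release genes. That test does not show whether the fit finds differences of their size. Sv2c and Rab3b took values from a fit without the filter.

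Precision is limited by there being 6 arrays of 4 mice. All 38 genes were named. The rule asked for values per array for genes without array overlap, for the 10 of smallest p, and for those whose passing probe sets differed in sign by over 0.5 log2 (Snap25, Syngr1 and Syt1). It named up to 3 genes of smallest p from each other list. Values per array of the remaining genes, and the other probe sets shown, were added after their values were seen. Members and lists were chosen with earlier results of these data known.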

Additional observations from a re-analysis of the deposited data

How the results depend on the processing

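No member of the group passed the threshold under any of the 20 alternatives, all planned. With limma the smallest adjusted p was 0.342, for Unc13b with the mouse as a random block. The count of all genes called was 0 except with a variance trend and robust variance, where it was 1. The median difference of the 36 genes, 0.01, had no stable sign. It was -0.0063 with the mean of passing probe sets, -0.0027 with probe sets of unambiguous suffix, -0.0028 with the 6 arrays as separate samples and -0.0091 with the re-LCM tag as a term. Over leave-outs it ran from -0.03 without control mouse 2 to 0.07 without transgenic mouse 2. Each shift was under the SD between mice (0.06 in log2 level). The mouse number as a replicate block called 0 genes and changed no call. It left the median at 0.01, but it cannot move a difference here, because each group holds both mouse numbers. The deviations of same-numbered mice correlated at 0.033. With 2 mice per group both mouse numbers give this same value, so it cannot decide whether the numbers pair the mice. The numbers also went with the re-LCM tag, which mouse 1 carried in both groups. Leaving out mice or arrays leaves fewer arrays to separate. Of the 36 genes, 2 were then without overlap without transgenic mouse 1, against 15.7% of all genes. Without transgenic mouse 2 they were 15, against 48.9%, and without control mouse 2 they were 15, against 45.2%. Without control mouse 1 they were 8, against 17.3%, the only leave-out where the share of the 36 was the higher one. Leaving out 1 array of a mouse 2 gave 2 to 4, against 16.9% to 19.2%. Of the 36, 9 kept their sign under every alternative run (Unc13b, Vamp1, Vamp2, Cplx1, Napa, Napb, Rab3c, Syn3 and Synj1), and 80 of 720 values had the opposite sign. The 720 include the settings without a filter, with the mouse number as a block and with a variance trend. These left each difference of the 36 as it was, so no sign could turn there. A share over all tested genes is not given for these counts.

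With the 6 arrays as separate samples Nsf was at -0.015, Syt7 at -0.020 and Syn1 at 0.0064. With the arrays of control mouse 2 as 2 mice Syt1 was at 0.020, Syt7 at -0.0086 and Syn1 at 0.048. With the floor at the median intensity Unc13a was at 0.042. With the mean of passing probe sets Snap25 was at -0.12, Pclo at -0.025, Syt1 at 0.0040, Rph3a at -0.10 and Syngr1 at 0.027. With the mouse as a random block (correlation -0.54) Snap91 was at 0.00089, Pclo at -0.0065, Cplx2 at 0.018, Nsf at -0.039, Synpr at -0.026, Syt1 at 0.0083, Sv2b at 0.0082, Unc13a at 0.012, Syt7 at -0.10 and Syn1 at 0.044. With probe sets of unambiguous suffix Syt11 was at -0.041. With quantile normalization Pclo was at -0.0032. With the re-LCM tag as a term Nsf was at -0.077, Synpr at -0.052, Unc13a at 0.15 and Dnm1 at -0.0097. Leaving out 1 mouse or 1 array in turn turned the sign of 25 genes, which ran as follows: Syt4 from -0.22 to 0.011, Snap91 from -0.16 to 0.057, Syt5 from -0.43 to 0.082, Syt1 from -0.15 to 0.11, Syt7 from -0.18 to 0.34, Syp from -0.47 to 0.11, Syn1 from -0.29 to 0.22, Rab3a from -0.0072 to 0.26 and Snap25 from -0.061 to 0.41. Further such ranges were Pclo from -0.14 to 0.16, Nsf from -0.12 to 0.15, Sv2a from -0.083 to 0.055, Syn2 from -0.026 to 0.22, Bsn from -0.53 to 0.11, Unc13a from -0.60 to 0.38, Syt11 from -0.035 to 0.19, Dnm1 from -0.071 to 0.18 and Cplx2 from -0.30 to 0.14. The remaining ranges were Rims2 from -0.44 to 0.0074, Synpr from -0.067 to 0.14, Rph3a from -0.010 to 0.26, Rims1 from -0.067 to 0.12, Doc2b from -0.21 to 0.29, Stx1a from -0.11 to 0.18 and Amph from -0.16 to 0.070. The cause of these sign changes was not tested. Intensities near the floor limit Sv2b, Sv2c, Rab3b and Unc13a.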
